A study of Mus musculus with 6 samples.

Results

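The miR-200 family consists of 5 mature miRNAs of the 3p arm, listed on the arrays as mmu-miR-200b-3p, mmu-miR-200a-3p, mmu-miR-429-3p, mmu-miR-200c-3p and mmu-miR-141-3p (the species prefix is left out from here on). They were selected by name among the 1881 mouse miRNAs that the arrays carried, as the members of the family. All 5 had probes, and 3 of the 5 gave enough signal to be compared between groups. The data came from 6 tumours of C57BL/6 mice inoculated in the right flank with 0.1 ml of Hepa1-6 cells, a mouse hepatoma line that all 6 tumours share. In the GLE group (3 mice) the treatment is named by that abbreviation alone, and the daily total was 0.023 g where a mouse weighed 10 g. The model group (3 mice) has its treatment labelled as none and, per the protocol, received 0.2 ml of 0.9% NaCl daily for 28 days. The age label of every sample is 28 d. Total tumour RNA was labelled with Cy3 and each tumour had an array of its own. Signal from a tumour piece comes from the hepatoma cells and from host cells together, and in such bulk RNA fewer cells of a type and less RNA per cell cannot be told apart.

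As background, the family is transcribed as a pair of clusters and is abundant in epithelial cells, where it holds down the transcription factors ZEB1 and ZEB2. These in turn repress both clusters, so that the family and the ZEB factors form a mutual brake that accompanies the switch between epithelial and mesenchymal states. A miRNA selects its targets mainly through its seed, bases 2 to 8 counted from the 5′ end, and the family carries a pair of seeds. Messenger RNA of the targets was not measured on these arrays.

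The mature sequences are shown because both the seed groups and the discrimination between probes rest on them. All 10 arms of the 5 hairpins matched an entry by name in the RefSeq table (build GRCm38.p6, all on the minus strand). Capitals mark the seed.
miR-200b-3p: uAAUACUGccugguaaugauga
miR-429-3p: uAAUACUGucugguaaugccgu
miR-200c-3p: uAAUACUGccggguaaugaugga
miR-200a-3p: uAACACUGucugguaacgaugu
miR-141-3p: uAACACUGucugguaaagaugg
The first group of 3 shares the seed AAUACUG and the second, miR-200a-3p and miR-141-3p, the seed AACACUG. The seeds differ by 1 base, U4C with miR-200b-3p as the reference and positions counted from 1 at the 5′ end. Each seed therefore occurs in both clusters. Over their first 22 bases, miR-200b-3p and miR-200c-3p are identical at 20 positions and differ by U11G and A22G, and miR-200c-3p is 1 base longer. miR-200a-3p and miR-141-3p also match at 20 of 22 positions and differ by C17A and U22G. Within the chromosome 4 cluster the members are less alike: miR-200b-3p and miR-429-3p share 18 of 22 positions, as do miR-200b-3p and miR-200a-3p.

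Each member was read by 2 probes, each the exact complement of the 3′ part of its miRNA. The longer probe of each closely related couple is shown, since what these probes can separate decides how the clusters can be compared. Capitals mark probe bases that would not pair with the related miRNA of the other cluster.
probe of miR-200a-3p against miR-141-3p: AcatcGttaccagacagt
probe of miR-141-3p against miR-200a-3p: CcatcTttaccagacag
probe of miR-200b-3p against miR-200c-3p: TcatcattaccAggcag
probe of miR-200c-3p against miR-200b-3p: TCcatcattaccCggc
The miR-200a-3p, miR-141-3p and miR-200b-3p probes have 2 such bases and the miR-200c-3p probe has 3, 1 of which lies beyond the end of miR-200b-3p. On mm9, the build of the array files, the probe of miR-200b-3p maps to chr4:155429840-155429855, that of miR-200a-3p to chr4:155429063-155429079 and the longer one of miR-429-3p to chr4:155428068-155428085. Those of miR-200c-3p and miR-141-3p map to chr6:124668392-124668406 and chr6:124667985-124668000. All probes of the first cluster, both arms included, fall within 1826 bases and those of the second within 464 bases. These positions place each 5p arm at lower coordinates than its 3p arm, which is the reverse of the order that the minus strand of the RefSeq table gives, so positions within a hairpin are uncertain. In the RefSeq gene table of GRCm38.p6, used for names only, the chromosome 4 hairpins overlap the predicted gene Gm13648 and lie near Ttll10, and the chromosome 6 hairpins overlap no other listed gene and lie between Phb2 and Ptpn6.

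The cluster of chromosome 4 was detected in every tumour and the cluster of chromosome 6 in none. The scanner software marks each spot that lies well above background, and detection of a probe required such marks on a share above 0.5 of its spots. For miR-200b-3p, miR-200a-3p and miR-429-3p together, 522 of 522 used spots (100%) were well above background, and both probes of each were detected on all 6 arrays. The coefficient of variation among the spots of 1 such probe on 1 array was 0.885% to 9.82%. For miR-200c-3p and miR-141-3p together, 4 of 355 spots (1.13%) were, and no probe of either was detected on any array. Lack of detection was common: of the 1881 miRNAs on the arrays, 378 to 458 were detected per array. No probe was detected on all arrays of either group for 1493, which were therefore not tested. Among the 388 that were tested, a set already chosen by detection, 349 (89.9%) were detected on all 6 arrays.

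miR-200b-3p was bright. Its longer probe averaged 850, 4141 and 410 intensity units in the GLE tumours (replicates 1 to 3) and 2893, 1584 and 931 units in model replicates 1 to 3. The longer probe of miR-200c-3p, which carries the same seed, averaged 5.44, 10.4 and 7.98 units in the GLE tumours (replicates 1 to 3) and 10.9, 3.10 and 5.06 units in model replicates 1 to 3. The lowest signal of any detected probe lay between 11.8 and 13.2 units on these arrays, above every miR-200c-3p value. The 4 miR-200c-3p spots that were well above background came from model replicate 1 (3 spots) and GLE replicate 2 (1 spot), the arrays on which miR-200b-3p was brightest. With 3 mismatched bases between that probe and miR-200b-3p, cross-hybridisation at this level was not tested.

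The other couple gave the same picture. The longer probe of miR-200a-3p averaged 269, 1720 and 142 units in the GLE tumours (replicates 1 to 3) and 1089, 628 and 265 units in model replicates 1 to 3. The longer probe of miR-141-3p, of the same seed, stood at 4.56, 6.54 and 4.64 units in the GLE tumours (replicates 1 to 3) and at 7.95, 1.44 and 3.22 units in model replicates 1 to 3, with 0 of its 89 spots well above background. On the array where miR-200a-3p read 1720 units, the miR-141-3p probe, with 2 mismatched bases, thus read 6.54 units. miR-200c-3p and miR-141-3p were not detected in either group, so no fold is given and a difference between GLE and model tumours was not measurable. In the authors' deposited table, a log2 table of unknown scaling, miR-141-3p holds the column's lowest value on all 6 arrays. In the authors' deposited table miR-200c-3p stands above that lowest value in GLE replicate 2 (−1.06, log2) and model replicate 1 (−1.01, log2) only. Levels of different probes are not set against each other, since probes differ in how well they bind.

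**Figure D1:**
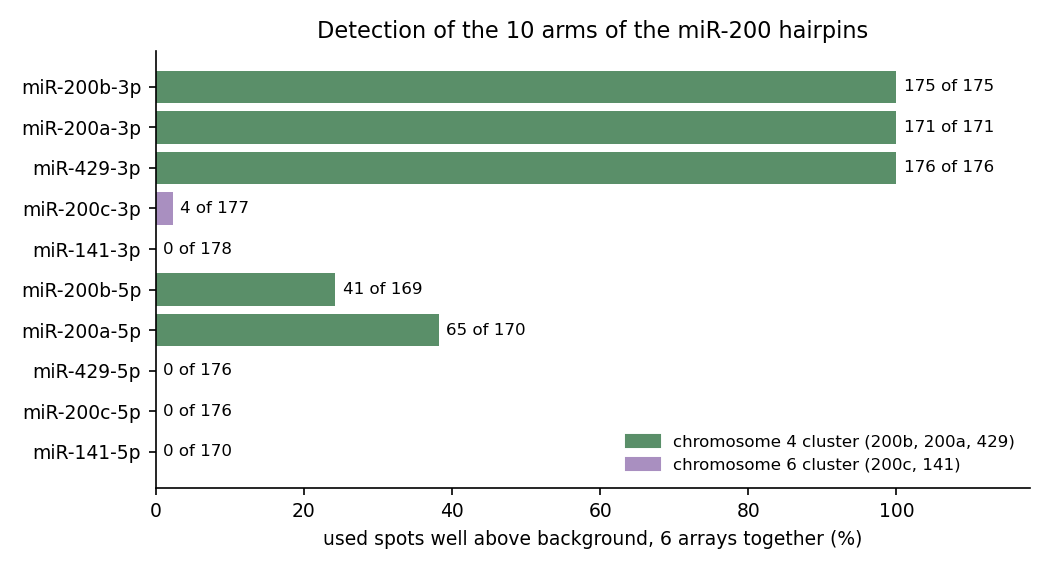
The bars give the percentage of used spots that were well above background, over all 6 arrays, for each arm of the 5 hairpins, with the counts beside them. The 3p arms of miR-200b, miR-200a and miR-429 reach 100%, miR-200c-3p reaches 2.26% and miR-141-3p 0%.

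The opposite arms of the same hairpins, which are usually degraded after the duplex opens, were detected from chromosome 4 hairpins only. Of the chromosome 4 hairpins, miR-200a-5p was detected on 4 arrays and miR-200b-5p on 3, while miR-429-5p was detected on 0 arrays. Of the chromosome 6 hairpins, miR-200c-5p and miR-141-5p had 0 of 346 spots well above background. Both detected arms carry the same seed, in capitals:
miR-200b-5p: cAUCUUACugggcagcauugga
miR-200a-5p: cAUCUUACcggacagugcugga
The longest probe of miR-200b-5p averaged 11.7, 55.1 and 5.94 units in the GLE tumours (replicates 1 to 3) and 39.9, 24.0 and 13.9 units in model replicates 1 to 3. The longest probe of miR-200a-5p averaged 12.2, 43.1 and 5.45 units in the GLE tumours (replicates 1 to 3) and 33.7, 17.5 and 14.4 units in model replicates 1 to 3. On the arrays where these probes were detected, their scaled signals had the same order as the mean of the 3p arms of the cluster. That order was GLE replicate 2, then model replicates 1 and 2, and for miR-200a-5p then model replicate 3.

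Levels of the 3 measurable members are given from here on as log2 of the probe signal over the 75th percentile of its array, taken over the 636 probes detected on all 6 arrays, so that 0 means a signal equal to that percentile. miR-200b-3p stood at 0.90, 2.37 and −0.41 in the GLE tumours (replicates 1, 2 and 3) and at 2.05, 1.63 and 1.06 in the model tumours in the same order. GLE replicate 2 was above every model tumour and the other GLE tumours were below every model tumour. Its mean was 0.95 ± 1.39 (SD, n = 3) in GLE and 1.58 ± 0.50 (SD, n = 3) in model tumours. The difference of −0.63 ± 0.66 (SE of the limma fit) corresponds to 0.646-fold, with a 95% interval of 0.220-fold to 1.90-fold (limma adjusted p = 0.935).

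miR-429-3p, which shares the seed of miR-200b-3p, had levels of 0.35, 2.03 and −0.96 in GLE replicates 1 to 3, and the model tumours had 1.73, 1.34 and 0.69. The arrangement was the same, with 1 GLE tumour above and 2 below the whole model range. The GLE mean was 0.47 ± 1.50 and the model mean 1.25 ± 0.52 (SD, n = 3 each). This was the member with the largest difference, −0.78 ± 0.70, or 0.582-fold with a 95% interval of 0.184-fold to 1.84-fold (limma adjusted p = 0.935).

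miR-200a-3p, the measurable member with the other seed, stood at −0.48, 1.40 and −1.62 in the GLE tumours (replicates 1, 2 and 3) and at 0.95, 0.61 and −0.49 in the model tumours in the same order. GLE replicate 1 (−0.48) and model replicate 3 (−0.49) were level here, and the other GLE tumours lay above and below the whole model range. Means were −0.23 ± 1.52 in GLE and 0.35 ± 0.75 in model tumours (SD, n = 3 each). The difference was −0.59 ± 0.75, or 0.666-fold with a 95% interval of 0.194-fold to 2.29-fold (limma adjusted p = 0.946).

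**Figure D2:**
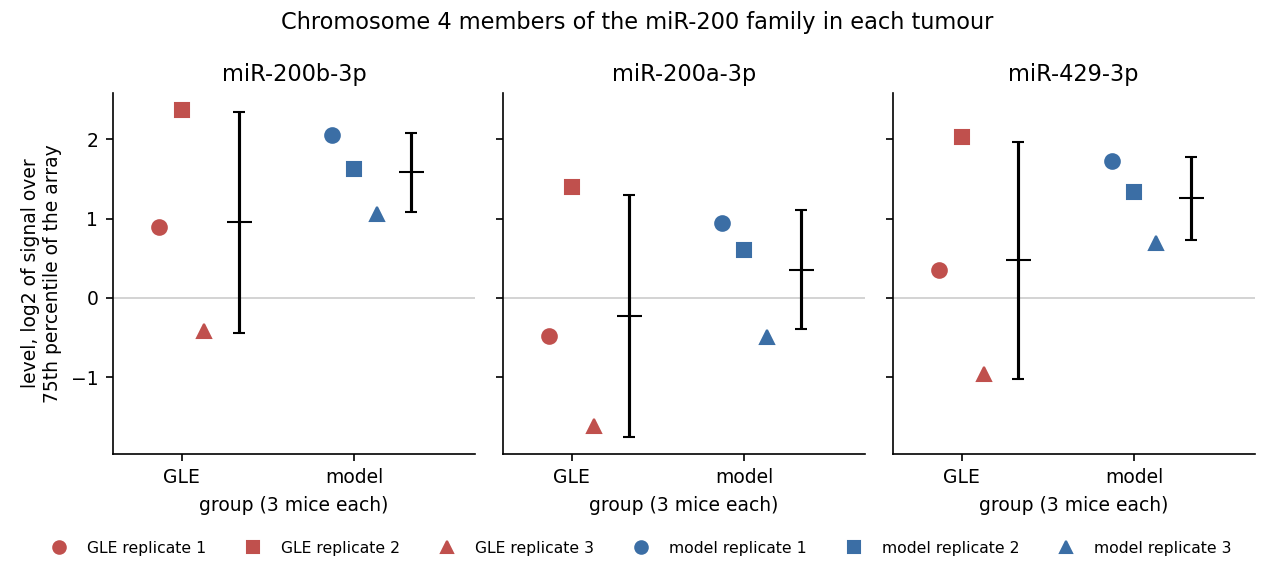
Each point is the level in 1 tumour, in log2 of signal over the array's 75th percentile, and the bar beside each group is its mean ± SD (n = 3). In every panel GLE replicate 2 is the highest of the 6 tumours and GLE replicate 3 the lowest, and the model tumours lie in between.

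Against the threshold of 0.05, 0 of the 3 tested members passed, and 0 of 388 tested miRNAs did (0%, limma with Benjamini-Hochberg adjustment). At an unadjusted p under 0.05 the count was 6 of 388 (1.55%), of which no member was one. All 3 members had a negative difference, as had 190 of 388 tested miRNAs (49%), and the median difference over all 388 was 0.0078. Groups that did not overlap were found for 0 of the 3 members and for 26 of 388 miRNAs (6.7%). The intervals of the 3 members reach from 0.184-fold to 2.29-fold, so neither a sizeable fall nor a sizeable rise under GLE was resolved at 3 tumours per group.

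The levels of miR-200a-3p, miR-429-3p and miR-200b-3p ranged over 3.02, 2.99 and 2.78 log2 units across the 6 arrays, ranks 3, 4 and 6 of 388, against a median range of 0.78. A range of at least 2 was seen in 25 of 388 miRNAs (6.44%). Both extremes were GLE tumours, so the range within that group equals the range over all arrays: 6.87-fold for miR-200b-3p, 7.93-fold for miR-429-3p and 8.11-fold for miR-200a-3p. Within the model group the corresponding ranges were 1.99-fold, 2.05-fold and 2.72-fold. The difference in spread between groups of 3 was not tested.

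**Figure D3:**
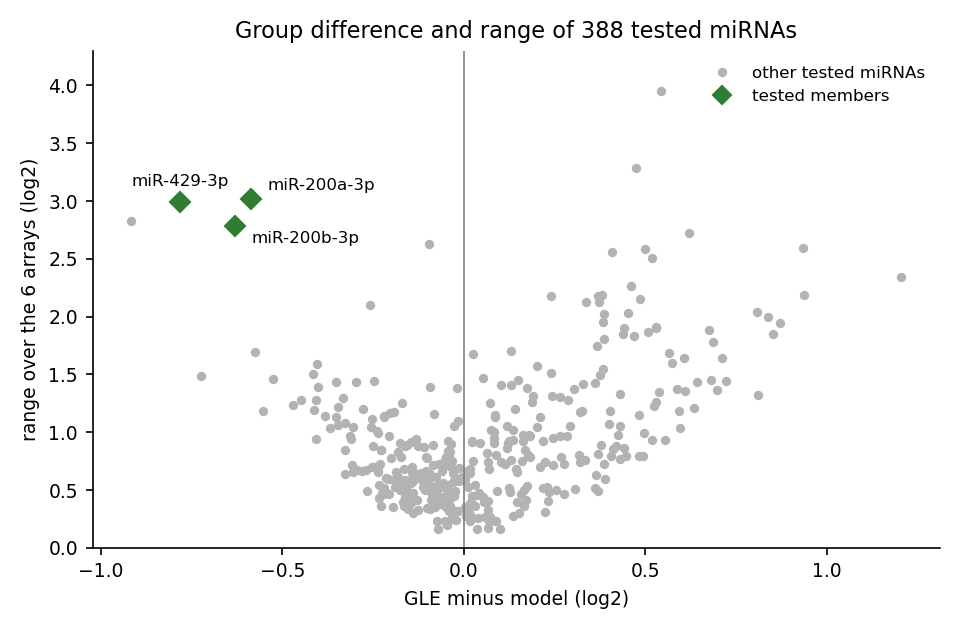
Each point is 1 of the 388 tested miRNAs, with GLE minus model (log2) across and the range over the 6 arrays (log2) upward. The 3 tested members sit between −0.78 and −0.59 across and between 2.78 and 3.02 upward, while the median range is 0.78.

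The size of the difference, and for miR-200b-3p and miR-200a-3p its sign, changed when a single GLE tumour was left out. With GLE replicate 3 omitted it was 0.048 for miR-200b-3p, 0.10 for miR-200a-3p and −0.068 for miR-429-3p (limma adjusted p = 0.991 for each). Without GLE replicate 2 it widened to −1.34, −1.40 and −1.56 for miR-200b-3p, miR-200a-3p and miR-429-3p. Their limma adjusted p values of 0.0921, 0.109 and 0.0818 did not pass either. The smallest limma adjusted p over all 399 miRNAs tested without that tumour was 0.0621, against 0.935 over 388 with all arrays kept. The lower adjusted p was thus not particular to the members. Without a model tumour the differences ran from −1.06 (miR-429-3p without model replicate 3) to −0.29 (miR-200a-3p without model replicate 1). A different background correction (normexp) gave −0.37 for miR-200a-3p.

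**Figure D4:**
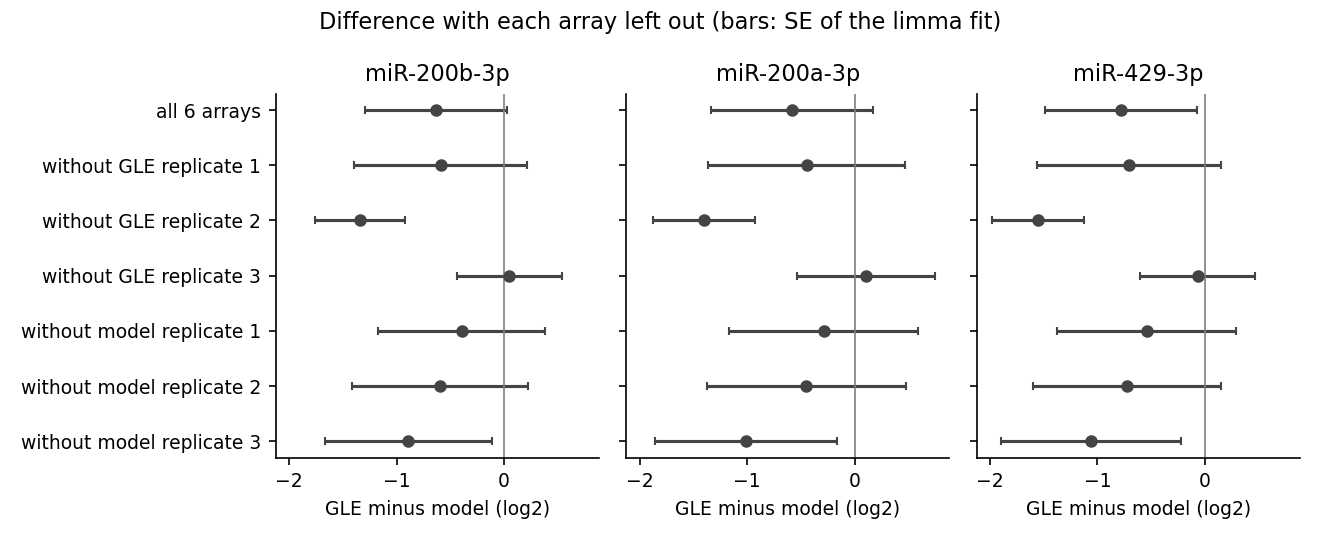
Points are GLE minus model (log2) for each member with all 6 arrays and with 1 array left out, and bars are the SE of the limma fit. The points lie near 0 without GLE replicate 3 and between −1.34 and −1.56 without GLE replicate 2.

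The 3 members moved together across tumours. When each was centred on its own mean over the arrays, the spread among the 3 on a single array was 0.10 to 0.38 log2 units, against a range of 2.93 for their mean. In model replicates 1, 2 and 3 that mean stood at 1.58, 1.19 and 0.42, between GLE replicate 2 at 1.93 and GLE replicate 1 at 0.26, with GLE replicate 3 at −0.996. Both probes of a member gave close group differences: −0.66 and −0.60 for miR-200b-3p, −0.56 and −0.61 for miR-200a-3p and −0.80 and −0.76 for miR-429-3p. The probes of a member cover nearly the same bases, such as 7 to 22 and 6 to 22 of miR-200b-3p, so they are not independent readings. Their levels were less alike. In the same order, the GLE means of the probes were −0.21 and 2.11 for miR-200b-3p, 0.63 and −1.09 for miR-200a-3p and 0.51 and 0.44 for miR-429-3p. The points share the arrays and their scaling, and the probes of the 3 members share stretches of sequence.

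By seed, the mean of miR-200b-3p and miR-429-3p was 0.71 ± 1.44 in GLE and 1.42 ± 0.51 in model tumours (SD, n = 3 each), a difference of −0.71, beside −0.59 for miR-200a-3p. The measurable part of each seed group thus comes from the same cluster, and the second seed group is read through 1 member. The level of miR-200a-3p minus the mean of the other seed group was −1.10, −0.80 and −0.93 in the GLE tumours (replicates 1, 2 and 3) and −0.94, −0.88 and −1.37 in the model tumours in the same order. These overlap between the groups, and their means differ by 0.12 with SDs of 0.16 and 0.27. Within the first seed group, miR-429-3p minus miR-200b-3p was −0.55, −0.34 and −0.55 in the GLE tumours and −0.32, −0.29 and −0.37 in the model tumours, a difference of −0.15 with overlapping groups.

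Of the opposite arms, miR-200a-5p alone passed the filter, and only through the model group, where it was detected on all 3 arrays. In GLE tumours it was detected in replicate 2 only. Its levels were −4.06, −3.08 and −4.25 in the GLE tumours (replicates 1, 2 and 3) and −3.21, −3.73 and −3.87 in the model tumours in the same order, where −4.25 is the floor below which no value was kept. With GLE replicates 1 and 3 not detected, no difference between the groups is given.

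Because the family is known as epithelial, other epithelial miRNAs were looked at. Of a list of 6, 0 could be tested and 3 were detected on any array. miR-203-3p, which drives keratinocyte differentiation, was detected on 4 arrays. It averaged 31.2 and 15.4 units in GLE replicates 2 and 3 and 39.1 and 18.1 units in model replicates 1 and 2. Its arrays thus included GLE replicate 3, the tumour lowest in the miR-200 members. miR-205-5p, of stratified epithelia, was detected on model replicate 1 alone at 24.0 units. miR-183-5p, miR-182-5p and miR-96-5p, a cluster of sensory and other epithelia, were detected on 0 arrays. miR-375-3p, abundant in endocrine and some other epithelial cells, averaged 5.82, 233 and −1.30 units in the GLE tumours (replicates 1 to 3) and 50.1, 40.5 and 5.74 units in model replicates 1 to 3. It was detected in GLE replicate 2 and model replicates 1 and 2, the 3 tumours in which the miR-200 members were highest. Scaled to the array's 75th percentile, the summed signal of the list was 0.108 to 1.01 in GLE and 0.0997 to 0.478 in model tumours. The highest sum, in GLE replicate 2, came largely from miR-375-3p, of which a probe read 0.640 there. A probe of miR-203-3p read 0.0858 in that tumour. The probes of miR-203-3p and miR-205-5p were highest in model replicate 1, at 0.125 and 0.0769.

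Marker miRNAs of other cell types also varied among the tumours. The 6 mesenchymal miRNAs were all detected on all 6 arrays, with a summed signal of 6.65, 3.61 and 11.7 in the GLE tumours (replicates 1, 2 and 3) and 3.89, 3.15 and 5.04 in the model tumours in the same order. GLE replicate 3, lowest in the miR-200 members, thus had the highest mesenchymal sum, in which the brightest miRNAs weigh most. In that tumour miR-199a-3p stood at 1.60, against −0.15 in GLE replicate 2. For miR-214-3p, which is made from the same transcript in fibroblast-like cells, these levels were −1.72 and −3.26. The step was smaller for miR-143-3p, at −1.58 and −2.15 in GLE replicates 3 and 2. miR-145a-5p was level between GLE replicate 3 (−3.22) and model replicate 2 (−3.23). The 4 blood lineage miRNAs, all detected on all 6 arrays, summed to 20.5, 10.2 and 29.9 in the GLE tumours and 9.11, 8.40 and 13.4 in the model tumours, again highest in GLE replicates 3 and 1. Of these, miR-142a-3p, found throughout blood cells, was at 2.09 and miR-223-3p, of myeloid cells, at 1.42 in GLE replicate 3, against 1.25 and −0.51 in GLE replicate 2.

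The summed signal of the hepatocyte list was highest in GLE replicate 2, although 2 of its 5 miRNAs, miR-192-5p and miR-194-5p, could be tested. The list of 5 summed to 0.305, 2.95 and 0.198 in the GLE tumours (replicates 1, 2 and 3) and to 0.796, 0.445 and 0.180 in the model tumours in the same order. miR-192-5p, of liver and gut, was at −3.01, 0.26 and −3.46 in GLE replicates 1 to 3, and the model tumours had −1.64, −2.51 and −3.69, so that GLE replicate 2 alone exceeded the model range. miR-194-5p was at −3.90, −0.97 and −4.175 in GLE replicates 1 to 3 and at −2.82, −3.39 and −4.25 in model replicates 1 to 3. miR-122-5p, which dominates normal hepatocytes, was detected on 2 arrays, 1 GLE and 1 model, and miR-215-5p and miR-802-5p on 0. The sum is thus not a reading of the whole list. Erythroid miRNAs summed to 6.03 to 22.3 in GLE and 8.69 to 25.4 in model tumours, skeletal muscle miRNAs to 2.40 to 8.19 and 1.48 to 3.56, and endothelial miRNAs to 5.97 to 8.32 and 4.77 to 5.62. Of the 18 miRNAs of these 7 lists that could be tested, 0 passed over all 388 (0%). The difference between GLE and model was below 0 for 190 of all 388 tested miRNAs (49%). It was below 0 for 1 of 6 tested mesenchymal (median 0.64), 0 of 4 blood lineage (0.85) and 2 of 2 erythroid miRNAs (−0.28). For muscle miRNAs the count was 1 of 3 (0.52) and for endothelial miRNAs 0 of 1 (0.49). No such count is given for the hepatocyte list. Its miR-194-5p passed the filter only through the GLE group, being detected on 3 GLE and 2 model arrays. The part of these cells in the miR-200 levels was not tested.

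**Figure D5:**
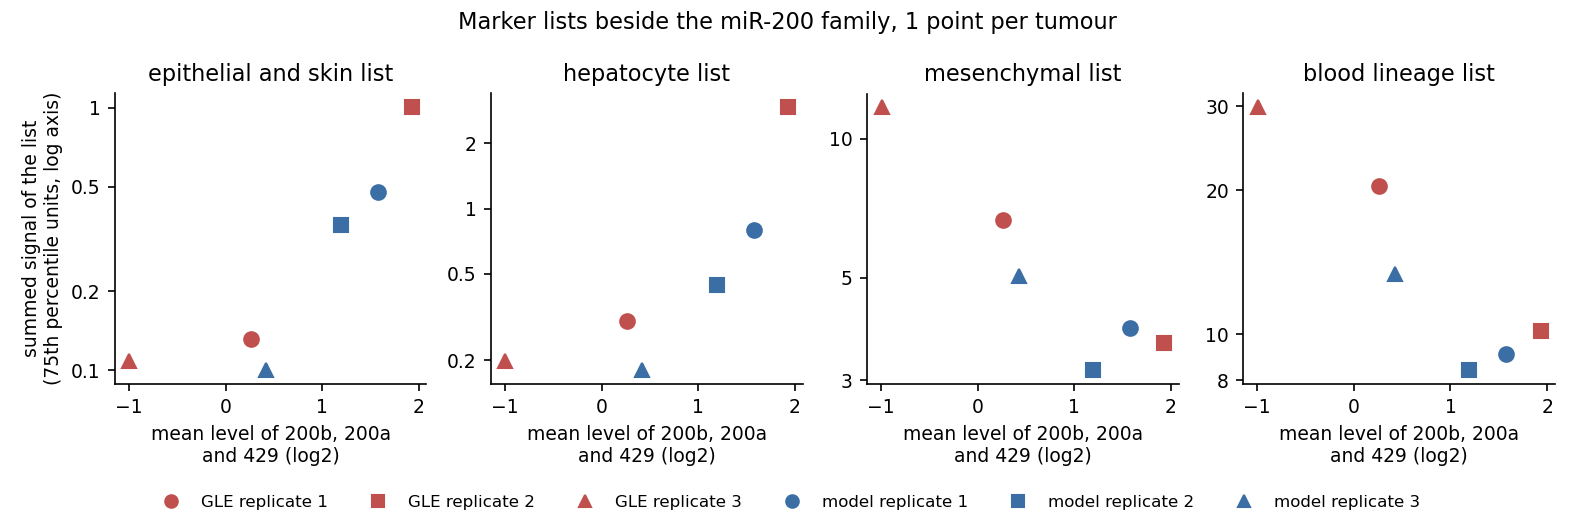
Each point is 1 tumour, with the mean level of miR-200b-3p, miR-200a-3p and miR-429-3p (log2) across and the summed signal of a marker list upward on a log axis. The tumour at the left, GLE replicate 3, has the highest mesenchymal (11.7) and blood lineage (29.9) sums, and GLE replicate 2 at the right has the highest epithelial (1.01) and hepatocyte (2.95) sums. A single probe of miR-375-3p gives 0.640 of that epithelial sum.

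Several miRNAs outside the family followed nearly the same order of tumours with smaller steps. Likeness was measured as Pearson's r over the 6 arrays with the mean of the 3 centred members, among the 384 tested miRNAs outside the family and its opposite arms, and is a description only. The 6 most alike were miR-23b-3p and let-7c-5p (r = 0.99 each), miR-30e-5p and miR-26a-5p (0.99 each), and miR-30c-5p and miR-196b-5p (0.98 each). Their ranges over the arrays were 0.61, 0.56, 0.89, 0.64, 1.28 and 1.69 log2 units, all below the 2.93 of the members' mean. The most opposite were miR-7045-5p (r = −0.99), miR-290a-5p (−0.99) and miR-7031-5p (−0.98), with miR-7045-5p at −1.62 in GLE replicate 2 and 0.21 in GLE replicate 3. In all, 35 of the 384 had an r above 0.9 and 56 had one below −0.9. The median r was −0.38, and 244 of the 384 had an r below 0. An order running against the members was thus common beyond the mesenchymal and blood lineage lists.

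Across the series, 378 to 458 miRNAs were detected per array and 0 spots were saturated. The 75th percentile signals used for scaling were 203, 364 and 241 units in the GLE tumours (replicates 1, 2 and 3) and 313, 231 and 211 in the model tumours in the same order. GLE replicate 2 and model replicate 1 were the brightest arrays and also the highest in the miR-200 members, whereas GLE replicate 3, the third brightest, was the lowest. Apart from GLE replicate 3, the arrays had the same order in both: GLE replicate 2, model replicates 1, 2 and 3, then GLE replicate 1. The part of array brightness in the scaled levels was not tested. With no scaling between arrays the differences were −0.56, −0.51 and −0.71 for miR-200b-3p, miR-200a-3p and miR-429-3p. All 6 arrays lay on 1 slide and were scanned together, the GLE arrays in slide row 1 and the model arrays in slide row 2, so that slide row and treatment cannot be told apart.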

How the data were processed

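Tumour miRNA was measured on 6 one-colour arrays, 3 GLE and 3 model. Agilent Feature Extraction 10.7.1.1 wrote the scanner files, per the file headers and the submitters' processing notes. The authors deposited them as linear intensity with background and a spatial trend already removed, per the file headers, and with no scaling between arrays. The authors also deposited processed values on a log2 scale, judged from the values: over 388 miRNAs their ranks followed the summed probe signals (Spearman 0.977 to 0.982). They show single arrays and no direction. Their column medians were −3.20, −3.32 and −3.27 (GLE replicates 1 to 3) and −3.32, −3.17 and −3.13 (model replicates 1 to 3), each the column's lowest value. Scaling and centring stay unknown, and they served as an alternative.

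In R 4.3.3, outlier spots (1401 to 1883 an array) were dropped, the rest averaged per probe, each array divided by its 75th percentile over 636 probes, values floored at −4.25 (log2) and a miRNA's detected probes averaged. A miRNA was tested when a probe was detected on all arrays of 1 group or more, which left 388. Groups were compared with limma 3.58.1 (lmFit and eBayes, two-sided, Benjamini-Hochberg over all 388), tested on simulated data. Probe positions are on mm9, per the file headers, as given there, and span 1 base fewer than the probe. Named miRNAs were the 5 members, their opposite arms, 6 other epithelial miRNAs, the 6 most alike and 3 most opposite in pattern, and up to 2 tested miRNAs per marker list. Also named, after their values were seen, were miR-143-3p and miR-145a-5p of the mesenchymal list. The members and lists were chosen with earlier results of these data known.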

Additional observations from a re-analysis of the deposited data

How the results depend on the processing

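No member passed an adjusted p of 0.05 in limma under any alternative, and 0 miRNAs passed over all tested. With all arrays kept, the 3 differences stayed negative under the 13 alternatives for scaling, background, floor, flags, summaries, filter, deposited values and replicate block: −0.72 to −0.49 for miR-200b-3p, −0.68 to −0.37 for miR-200a-3p and −0.92 to −0.61 for miR-429-3p. With 1 array left out they ran from −1.34 to 0.048, from −1.40 to 0.10 and from −1.56 to −0.068 (smallest limma adjusted p = 0.0818). Over all miRNAs tested in those fits, the smallest limma adjusted p was 0.0621. The mean of the cluster ran from −1.43 to 0.028 and that of miR-200b-3p and miR-429-3p from −1.45 to −0.0100. The sign turned only without GLE replicate 3, for miR-200b-3p, miR-200a-3p and the cluster mean. With the replicate number as a block, the differences were unchanged at −0.63, −0.59 and −0.78 (limma adjusted p = 0.980 each) and 0 miRNAs were called. Same-numbered arrays share only a number and a slide column: their deviations correlated at −0.62, −0.18 and 0.37. Of the GLE arrays, only replicate 3 correlated best with its own number. GLE replicate 1 correlated best with model replicate 3 (0.39) and GLE replicate 2 with model replicate 1 (0.66). A slide or scan block could not be run, as there was 1 of each. Under every alternative the members tested were the same 3, without miR-200c-3p and miR-141-3p. The alternative with deposited values could not include them, as it used only the 388 miRNAs of the main fit. Without a filter, 502 miRNAs above the floor on some array were tested. The number of arrays, and for dim arms the background, limit precision: over the 388 miRNAs, 95% intervals reached a median of 0.54 (log2) to either side.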

Other observations

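One further miRNA came close to the miR-200 members in both range and order of tumours, and is named here after its values were seen. miR-135b-5p stood at −3.26, −1.01 and −3.84 in GLE replicates 1, 2 and 3 and at −1.20, −1.56 and −2.59 in model replicates 1, 2 and 3, a range of 2.83 log2 units that ranks 5 of 388. Its difference of −0.92 ± 0.74 did not pass (limma adjusted p = 0.935).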
